A study of Mus musculus with 8 samples.

Results

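The endoplasmic reticulum (ER) is where a cell folds the proteins it secretes or places on its surface. The unfolded protein response matches the folding capacity of that compartment to its load: the sensors IRE1 (gene Ern1), PERK (Eif2ak3) and ATF6 detect unfolded proteins, and their signals raise chaperones, disulfide enzymes and the machinery that sends failed proteins to the proteasome. IRE1 acts by splicing the messenger of the transcription factor XBP1, and XBP1 is best known in lymphocytes for building the secretory apparatus of plasma cells. The genes described here are 36 genes of this response and of ER folding, taken by symbol from a list, out of 39527 genes in the deposited table. That list was made with earlier results of these data known. All 36 were found and none held a value below 0.

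RNA was sequenced from group 2 innate lymphoid cells (ILC2s), tissue-resident lymphocytes that secrete type 2 cytokines, sorted from the epididymal visceral fat of wild-type male C57BL/6 mice. The 4 normal-diet libraries (N1 to N4) and the 4 high-fat libraries (H1 to H4) came from mice 14 weeks old, after 8 weeks on the diet begun at 6 weeks of age. The series title places the work in a study of the kinase LKB1, but both groups here are wild-type and are separated by the labels only in diet. No source says whether a library is 1 animal or a pool, so each p-value speaks of the scatter among these 8 libraries, and that scatter may be technical.

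Part of the set carries the DNA element by which ATF6 and XBP1 are known to act, the ER stress response element or ERSE. It was searched as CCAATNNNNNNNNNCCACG on both strands of RefSeq promoters (build GRCm38.p6, 250 bases before to 50 after each annotated start). The table held promoters for 30 of the 36 genes, and the missing ones are Atf6, Hspa13, Hyou1, Manf, Derl1 and Sec61a1. The element stood in 9 of the 30, against 39 of 32851 promoters in the whole table (0.119%), or 37 of 27025 genes. Textbook accounts define the element on promoters of this very family, so the share describes the set and is no independent finding. The sites are printed because they show what these genes have in common in sequence. Capitals mark the fixed letters at both ends, and each site reads from its CCAAT end on the strand named after it.
Hspa5 (chr2:34772025-34772043, plus strand): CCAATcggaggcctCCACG
Hsp90b1, farther site (chr10:86705638-86705656, minus strand): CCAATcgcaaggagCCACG
Hsp90b1, nearer site (chr10:86705533-86705551, plus strand): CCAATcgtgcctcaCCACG
Dnajc3 (chr14:118937827-118937845, plus strand): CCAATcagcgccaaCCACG
Calr (chr8:84847075-84847093, plus strand): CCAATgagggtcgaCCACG
Canx (chr11:50325800-50325818, minus strand): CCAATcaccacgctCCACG
Pdia6 (chr12:17266491-17266509, plus strand): CCAATgaaaggcggCCACG
Creld2 (chr15:88819520-88819538, minus strand): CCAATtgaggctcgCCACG
Syvn1 (chr19:6046532-6046550, plus strand): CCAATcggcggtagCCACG
Derl3 (chr10:75893242-75893260, minus strand): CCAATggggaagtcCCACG

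The spacer of 9 bases, a length fixed by the search, differed from site to site. All 10 sites lay before the start, from 212 to 26 bases away. In Hspa5, which encodes the main ER chaperone BiP, the exact element lay 65 to 47 bases before the start. The 250 bases that precede that start (chr2:34771840-34772089, plus strand), with the fixed letters of the element in capitals, show its setting:
Hspa5 promoter: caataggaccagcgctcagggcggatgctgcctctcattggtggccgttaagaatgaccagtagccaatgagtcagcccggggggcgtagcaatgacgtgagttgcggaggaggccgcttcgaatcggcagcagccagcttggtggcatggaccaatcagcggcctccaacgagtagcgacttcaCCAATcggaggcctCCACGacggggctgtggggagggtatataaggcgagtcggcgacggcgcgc
The related element ERSE-II, ATTGGNCCACG, was found in Herpud1 (ATTGGgCCACG, 52 to 42 bases before the start) and just after the start of Dnajb11 (ATTGGcCCACG), so in 2 of 30 genes against 0.0365% of all promoters. The core CCACG alone, which every ERSE and ERSE-II contains, was in 24 of 30 genes and in 32.8% of all promoters. The element of ATF4, searched as TGATGNAAT or TGATGNCAAT, was in 0 of 30 genes and in 1.20% of all promoters, which says only that those letters are not in these windows.

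**Figure D1:**
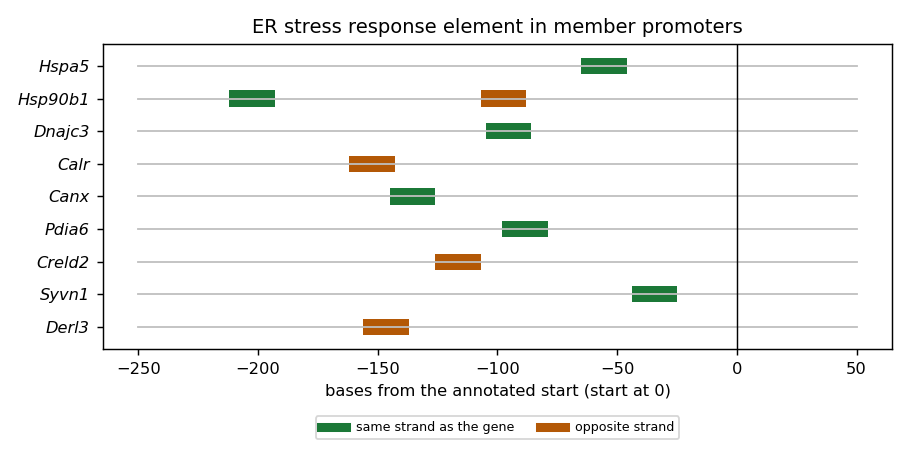
Position of each exact ERSE in the promoters of 9 genes. The x axis gives bases from the annotated start, grey lines are the window searched, and colour gives the strand of the element relative to the gene. Hsp90b1 holds an element on each strand, and the sites lie 212 to 26 bases before the start.

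Diet was tested on the whole table with limma on log2(FPKM + 1), where FPKM is fragments per kilobase of gene and scaled to library depth. A gene was tested if it reached 1 FPKM in at least 4 of the 8 libraries, and differences are high-fat minus normal diet on that log2 scale, where genes of low level show less than their full change. Over all 11483 tested genes, 0.975% were called higher and 1.88% lower at a Benjamini-Hochberg adjusted p under 0.05. Under quantile normalization 226 were higher and 204 lower, and on recovered reads 515 and 640, against 112 and 216 here. Depth, as recovered reads, was lowest in H2 (9005363) and highest in H4 (15752815). The libraries at the ends of the first principal component were H2 and N2. Over all tested genes the median deviation from a gene's own mean was -0.13 in H2 and 0.08 in N2, and between -0.03 and 0.05 in the other libraries. All 14 ILC2 markers listed (Gata3, Il1rl1, Il7r, Klrg1 and others) averaged above 1 FPKM. Their summed level was lower on the high-fat diet, 5774 to 6910 FPKM against 7400 to 8847 FPKM, and 3 of the 14 were called lower: Gata3 (-0.59), Il2ra (-0.72) and Il5 (-2.06). The markers did not all move the same way. Areg (0.33), Il7r (0.31), Pdcd1 (0.23) and Thy1 (0.09) had differences above 0, the others below 0, and none was called higher. Mast cell genes were also plain: 8 of 8 averaged above 1 FPKM, and their summed level was 4114 to 8573 FPKM on the normal diet and 1904 (H2) to 8223 FPKM on the high-fat diet. Endothelial genes summed to 18.7 to 25.1 and 38.0 to 159 FPKM, with 3 of 6 tested called higher, and T cell genes to 1068 to 1329 and 1008 to 1921 FPKM with none of 9 called. B cell and plasma cell genes, of interest because plasma cells use this pathway heavily, summed to 133 to 602 and 134 to 915 FPKM with overlap. Much of that spread was Igkc, at 4.61 FPKM in N3 and 636 FPKM in H4, which was not called. Of 8 tested, 1 was called higher: the transcription factor gene Irf4 (1.23), at means of 3.05 and 8.69 FPKM. No listed marker was at 0 in every library, and the part of these cells in the results below was not tested. In RNA of a sorted population, fewer cells of a type and less RNA per cell cannot be told apart.

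Of the 35 members tested, Xbp1 was called lower on the high-fat diet and none was called higher. Among the other 34, Ern1 came nearest (below). Differences were below 0 for 30 of the 35, with a median of -0.26, against 52.1% of all tested genes and a median of -0.02. Under quantile normalization 25 of 35 were below 0, with a median of -0.11, against 5705 of 11483 tested genes and a median of 0.0020. Without H2 and N2 it was 24 of 35 and -0.13, against 5403 of 11483 tested genes and a median of 0.02. At an unadjusted p under 0.05, 10 members were lower and 0 higher, against 11.0% and 7.18% of all tested genes. With limma voom on recovered reads, 6 members (Ern1, P4hb, Pdia3, Pdia6, Sec61a1 and Xbp1) were called lower and 0 higher. That setting called 5.57% of all tested genes lower. For 7 members (Ern1, Xbp1, Canx, P4hb, Ero1l, Creld2 and Sec61a1) every high-fat library lay below every normal-diet library, against 6.76% of all tested genes, and 4.31% had the opposite order, which no member had.

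**Figure D2:**
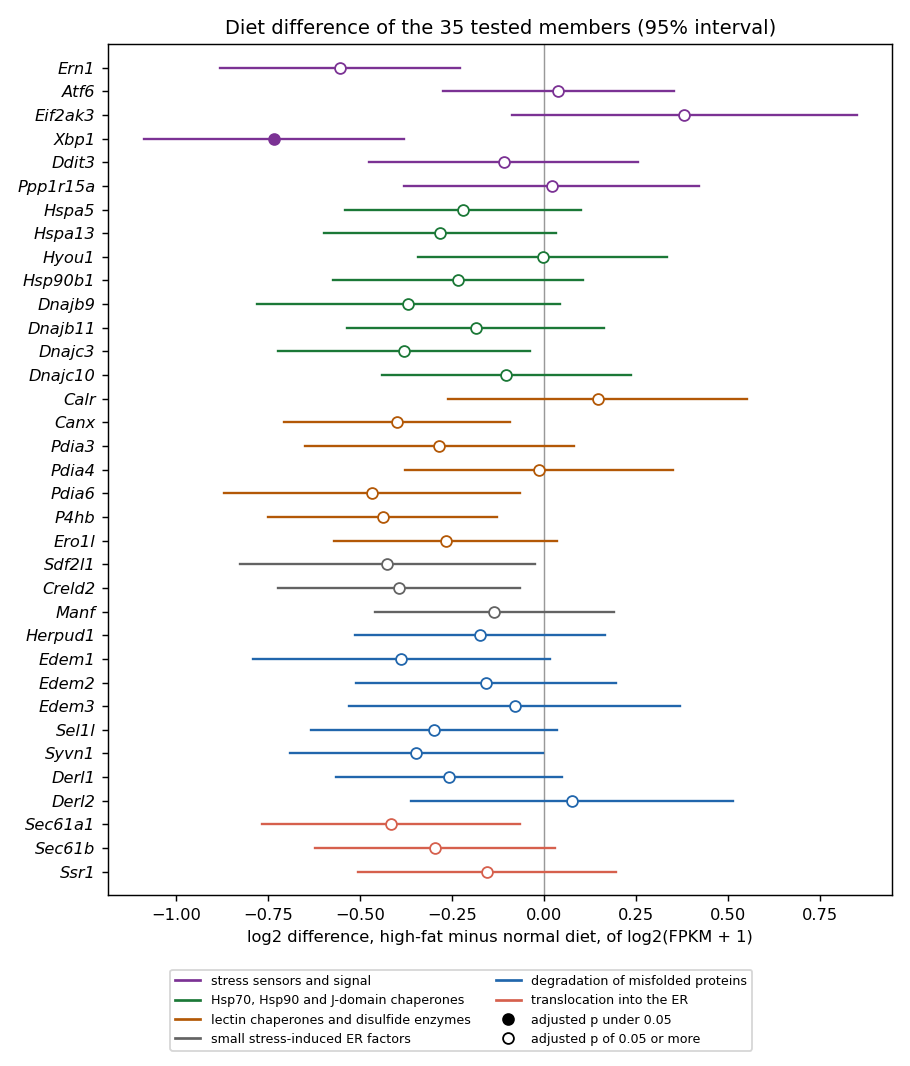
Log2 difference between the diets (x axis, high-fat minus normal diet) for the 35 tested members, each on its own line and coloured by role, with 95% intervals. The filled point is Xbp1 at -0.73, and 30 of 35 points lie left of 0.

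Xbp1 (ENSMUSG00000020484, chromosome 11, 5520659 to 5525893 in mm10, protein coding), the transcription factor activated by IRE1, was at 245, 200, 154 and 160 FPKM in N1 to N4 and at 124, 101, 107 and 117 FPKM in H1 to H4. The diets did not overlap, and N1 stood highest. The means were 190 ± 42.0 and 112 ± 10.5 FPKM (SD, n = 4 each), 1.69 times as high on the normal diet. On the log2 scale Xbp1 fell by 0.73 (standard error 0.16, limma adjusted p = 0.0271). The call ended without H3, H4, N1 or N2 (adjusted p = 0.0933, 0.0715, 0.0858 and 0.0828), while the difference stayed between -0.82 and -0.60 over the 8 sets that leave out 1 library. Other settings that ended it include those without H2 and N2 together (0.0573), with no filter on low values (0.0889) and with limma's plain variance options (0.0611), and the adjusted p ran from 0.0024 to 0.0933 over 17 alternative settings. FPKM per gene does not separate the spliced from the unspliced messenger, so the activity of IRE1 was not measured.

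Ern1 (chromosome 11, 106394650 to 106487852), which encodes the sensor and nuclease IRE1 alpha, was at 373, 462, 311 and 379 FPKM in N1 to N4 and at 258, 294, 240 and 240 FPKM in H1 to H4. As for Xbp1, the diets did not overlap, with the lowest normal-diet library (N3) close above the highest high-fat library (H2). The log2 difference, -0.55 (standard error 0.15), did not pass in limma (adjusted p = 0.0660). Among 17 other settings 5 gave a call, including those without H2 (0.0334) and without N3 (0.0496), and the range of the adjusted p was 0.0211 to 0.186. Each Xbp1 and Ern1 value rests on at least 3520 recovered reads, so counting error is small beside the spread between libraries.

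The sensors differed far more from one another in level than any did between the diets. Levels are set side by side as deposited: Ern1 averaged 320 FPKM over the 8 libraries, Atf6 8.25 FPKM and Eif2ak3 1.14 FPKM. FPKM is per length, but the length used for each gene is not stated, so ratios between genes depend on it. In recovered reads, some of which may be too low, Ern1 had 3569 to 7240, Atf6 549 to 917 and Eif2ak3 28 to 96. The gap between Ern1 and Atf6 is thus smaller in recovered reads than in FPKM. In each library Ern1 was 28.3 to 52.8 times as high as Atf6. The ratio was 44.4 to 52.8 in the normal-diet libraries and 28.3 to 33.0 in the high-fat libraries, with no overlap, and a single scaling factor per library cancels in it. Atf6 over Eif2ak3, 2 genes not called, also parted the diets, at 7.15 to 15.4 and 5.34 to 6.64. How often such ratios part among other genes was not counted, so the lack of overlap is a description only. Of the tested genes, 97.6% had a lower mean than Ern1 and 4.48% a lower mean than Eif2ak3.

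Atf6, the sensor that is itself cut to release a transcription factor, was at 8.41, 8.76, 6.92 and 8.41 FPKM in N1 to N4 and at 7.80, 9.44, 8.46 and 7.78 FPKM in H1 to H4. The diets overlapped throughout, and the difference was 0.04 with a 95% interval from -0.27 to 0.35. Eif2ak3, the kinase PERK that slows translation, was at 1.18, 0.569, 0.930 and 0.775 FPKM in N1 to N4 and at 1.17, 1.56, 1.47 and 1.46 FPKM in H1 to H4. H1 and N1 were level and the other 3 high-fat libraries lay above all of the normal-diet libraries. This gene passed the filter through the high-fat libraries and N1, on 28 to 96 reads, and the difference of 0.38 did not pass (adjusted p = 0.383).

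Ddit3, which encodes the stress factor CHOP, was at 53.4 ± 7.67 FPKM in N1 to N4 and 49.8 ± 9.42 FPKM in H1 to H4. Its difference of -0.11 had an interval from -0.48 to 0.26, and some of its exon bases also belong to Mars on the opposite strand. Ppp1r15a, the phosphatase subunit GADD34 that lets translation resume, was among the most abundant members, at 1479, 1526, 1370 and 1550 FPKM in N1 to N4 and at 1963, 977, 1581 and 1675 FPKM in H1 to H4. Its spread was wider among the high-fat libraries, 26.8% of the mean against 5.39%, with H2 lowest and H1 highest, and its difference of 0.02 did not pass (adjusted p = 0.972). Its sign turned without H1, H3, H4 or N3, and at -0.05 when a factor that repeats along the table was divided out.

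**Figure D3:**
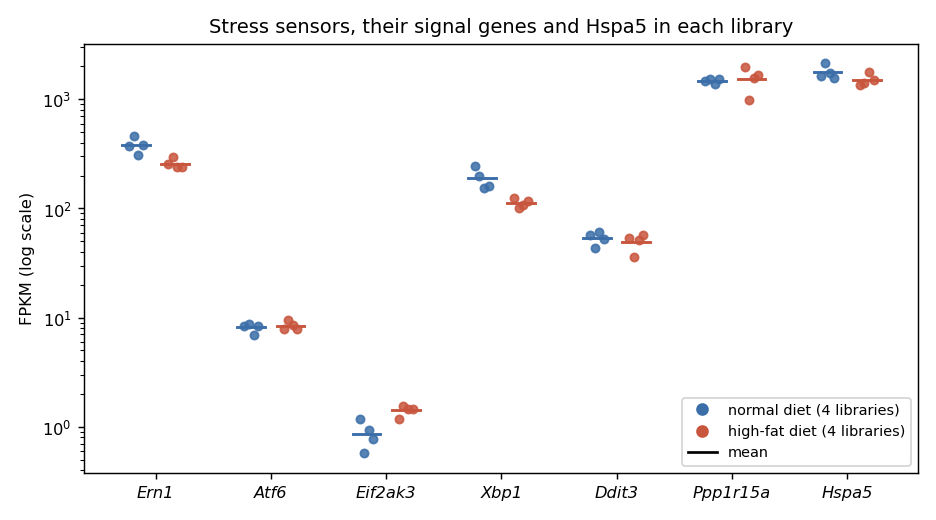
FPKM (y axis, log scale) of the sensors Ern1, Atf6 and Eif2ak3, of Xbp1, Ddit3 and Ppp1r15a, and of Hspa5 in each of 4 normal-diet (blue) and 4 high-fat (red) libraries. Bars are means, and the groups part for Ern1 and Xbp1, while Atf6 and Eif2ak3 lie well below Ern1 in every library.

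Chaperones of the ER lumen ranged widely in level, and none of 8 was called by limma or voom. At an unadjusted p under 0.05, 0 were higher and 1 lower, against 7.18% and 11.0% of all tested genes. Hspa5, the BiP chaperone, led all members in mean level (99.6% of tested genes lay below it), at 1620, 2131, 1730 and 1577 FPKM in N1 to N4 and at 1364, 1400, 1790 and 1500 FPKM in H1 to H4. H3 lay above 3 of the normal-diet libraries, so the diets overlapped, and the difference of -0.22 did not pass (adjusted p = 0.479). The 95% interval of that difference ran from -0.54 to 0.10. Hsp90b1, the ER form of Hsp90, was at 118 ± 15.3 and 101 ± 15.8 FPKM with a difference of -0.23, and Hspa5 stood 12.5 to 22.6 times above it in each library.

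The co-chaperones with a J domain, which drive BiP, averaged 78.3 FPKM over the 8 libraries for Dnajb11, 76.0 FPKM for Dnajb9, 65.3 FPKM for Dnajc3 and 17.7 FPKM for Dnajc10. Dnajb11 and Dnajb9 did not differ beyond their spread, and on the normal diet Dnajb9 had the higher mean. Dnajc3 was at 65.8, 91.8, 73.7 and 64.8 FPKM in N1 to N4 and at 68.8, 49.5, 53.2 and 54.6 FPKM in H1 to H4. H1 alone reached the normal-diet range, and the difference of -0.38 did not pass (adjusted p = 0.219). Dnajb9, a target of XBP1 that restrains IRE1, was at 97.4, 109, 86.0 and 54.7 FPKM in N1 to N4 and at 76.0, 61.6, 61.9 and 61.3 FPKM in H1 to H4. N4 lay below all other libraries and the difference was -0.37 (adjusted p = 0.334). Dnajb11 (-0.19), Dnajc10 (-0.10), the Hsp70 relatives Hspa13 (-0.28) and Hyou1 (-0.0033) had adjusted p from 0.333 to 0.995. Hyou1, which resets BiP by exchanging its nucleotide, lay above 0 in 8 of the 17 other settings.

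Lectin chaperones and disulfide enzymes held 3 of the 7 members whose diets did not overlap, an order that 6.76% of all tested genes had. Limma called none of the 7 lectin chaperone and disulfide enzyme genes. Among them 0 were higher and 3 lower at an unadjusted p under 0.05, against 7.18% and 11.0% of all tested genes. Voom on recovered reads called 3 lower, against 5.57% of all. Canx, the membrane lectin calnexin, was at 152, 153, 135 and 112 FPKM in N1 to N4 and at 97.7, 104, 107 and 106 FPKM in H1 to H4. The high-fat libraries lay close together, and all under the lowest normal-diet library. The difference was -0.40 with a standard error of 0.14 (adjusted p = 0.153). Its soluble counterpart Calr was at 174 ± 33.6 and 194 ± 46.7 FPKM, and the difference of 0.15 changed sign without H1 or N2.

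P4hb, the founding protein disulfide isomerase, was at 192, 234, 195 and 244 FPKM in N1 to N4 and at 156, 137, 170 and 173 FPKM in H1 to H4, again without overlap. Its difference of -0.44 did not pass with limma (adjusted p = 0.122) and passed with voom on recovered reads (0.0259). Ero1l, the oxidase that recharges these isomerases, was at 76.1, 92.3, 70.1 and 68.0 FPKM and at 61.0, 66.6, 63.3 and 61.4 FPKM, so N4 lay just above H2. Its difference was -0.27 (adjusted p = 0.342).

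Pdia6, an isomerase that also acts on IRE1, was at 167, 276, 169 and 142 FPKM in N1 to N4 and at 151, 129, 118 and 132 FPKM in H1 to H4. N2 stood apart from the other normal-diet libraries, and without N2 the difference went from -0.47 to -0.27. Limma did not call Pdia6 (adjusted p = 0.197), and voom on recovered reads called it lower (0.0315). Pdia3, the partner of both lectin chaperones, was the most abundant isomerase, at 768 ± 108 and 636 ± 130 FPKM. It differed by -0.28 (limma adjusted p = 0.408), and by -0.14 without H2, and voom called it lower (0.0339). Pdia4 differed by -0.01, with an interval from -0.38 to 0.35.

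The small stress-induced factors Sdf2l1, Creld2 and Manf all had differences below 0 and none was called by limma or voom. Unadjusted p under 0.05 was met by 0 higher and 2 lower, against 7.18% and 11.0% of all tested genes. Creld2, a disulfide-handling factor with an ERSE in its promoter, was at 38.8, 51.6, 40.7 and 56.9 FPKM in N1 to N4 and at 36.2, 32.8, 33.8 and 37.7 FPKM in H1 to H4. The diets did not overlap, by a narrow margin between N1 and H4, and the difference was -0.39 (adjusted p = 0.188). Sdf2l1, a partner of BiP and J-domain proteins, differed by -0.43 (adjusted p = 0.245), with N3 inside the high-fat range. Manf, a secreted factor that binds BiP, differed by -0.13 and shares exon bases with 2 genes on the opposite strand.

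Genes that retrieve and degrade misfolded proteins showed no call among 8 tested, with limma or voom. Here 0 were higher and 1 lower at an unadjusted p under 0.05, against 7.18% and 11.0% of all tested genes. Syvn1, the ubiquitin ligase HRD1 that passes failed proteins out of the ER, was at 16.0, 13.7, 11.9 and 15.0 FPKM in N1 to N4 and at 9.36, 9.65, 11.2 and 13.7 FPKM in H1 to H4. H4 reached the normal-diet range, and the difference was -0.35 (adjusted p = 0.269). Its partner Sel1l was at 24.2, 36.04, 26.0 and 25.4 FPKM and at 22.8, 20.2, 21.4 and 24.8 FPKM, with N2 far above the others, and differed by -0.30. Herpud1, which recruits that ligase, was the most abundant of the group at 150 ± 20.4 and 133 ± 21.4 FPKM, and differed by -0.17.

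The mannosidase-like proteins Edem1, Edem2 and Edem3, which mark glycoproteins for disposal, differed by -0.39, -0.16 and -0.08, with adjusted p from 0.296 to 0.890. The membrane channel proteins Derl1 and Derl2 differed by -0.26 and 0.08, and Derl2 shares exon bases with Mis12 on the opposite strand. Derl3, a homologue known from secretory cells, was not tested: it was at 0.440, 0.064, 0.550 and 0 FPKM in N1 to N4 and at 0.247, 0.178, 0.366 and 0.571 FPKM in H1 to H4. That is 0 to 10 reads per library, where a count of 0 still allows up to 3 reads, so no difference was detectable at this depth.

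Of the 3 translocation genes none was called by limma. Unadjusted p under 0.05 was met by 0 higher and 1 lower, against 7.18% and 11.0% of all tested genes. Voom called 1 lower (5.57% of all). Sec61a1, the pore of the channel through which secretory proteins enter the ER, was at 137, 199, 136 and 118 FPKM in N1 to N4 and at 113, 101, 106 and 113 FPKM in H1 to H4. All high-fat libraries lay below all normal-diet libraries, N4 lying close above H1 and H4, and the difference of -0.42 did not pass with limma (adjusted p = 0.190), though it did with voom (0.0276). Without N2, its highest library, the difference was -0.26. Sec61a1 also shares exon bases with Gm44170 on the opposite strand. Sec61b, a small subunit of the channel, was at 135 ± 10.9 and 110 ± 18.5 FPKM (-0.30, adjusted p = 0.324), and Ssr1, a subunit of the associated translocon complex, at 78.4 ± 9.76 and 70.9 ± 13.3 FPKM (-0.15, adjusted p = 0.677).

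Read by library, N2 and H2 lay farthest from the gene means. N2 held the highest value of 18 of the 35 tested members and H2 the lowest of 17. Without N2 the difference of Hspa5 was -0.13, of Dnajb9 -0.25, of Ero1l -0.18 and of Sel1l -0.17. Without H3 it was -0.12 for Hsp90b1 and -0.22 for Edem1, and without N4 it was -0.57 for Dnajb9. The median deviation of the members from their own means was 0.10, 0.32, 0.06 and 0.02 in N1 to N4 and -0.04, -0.27, -0.13 and -0.09 in H1 to H4. It was thus above 0 in each normal-diet library and below 0 in each high-fat library, and the same over all genes was 0.08 in N2 and -0.13 in H2. H2 was also the library with the fewest reads and the lowest mast cell sum, and the part of either was not tested.

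**Figure D4:**
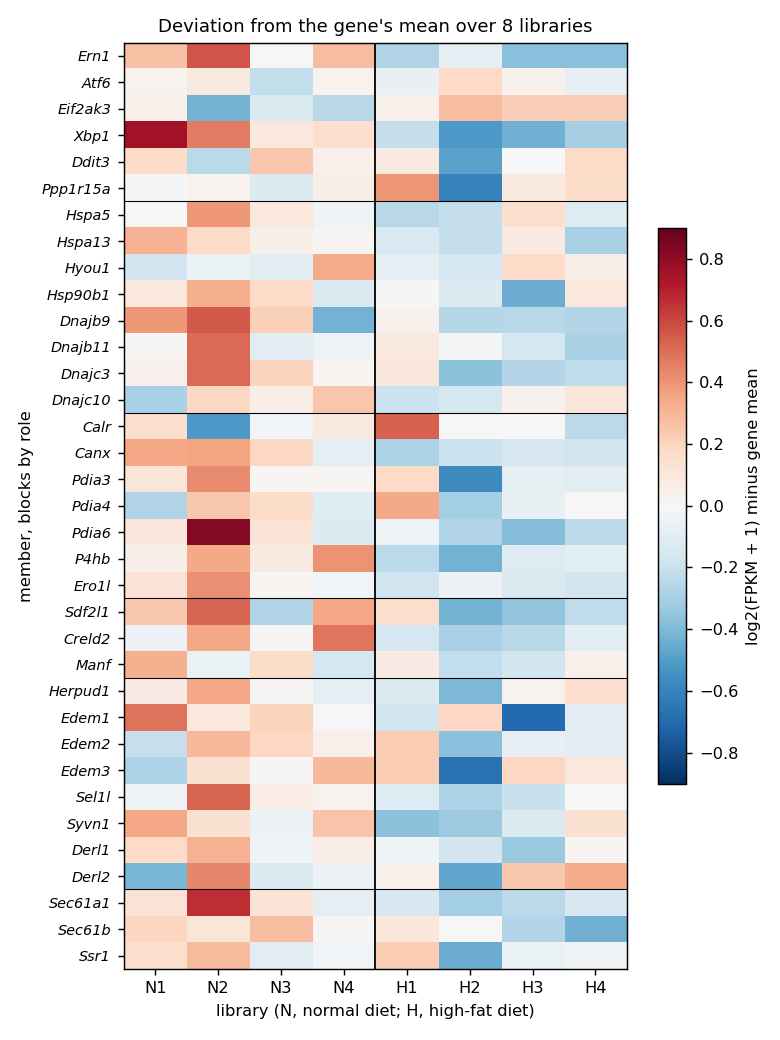
Deviation of log2(FPKM + 1) from each gene's mean over the 8 libraries (colour), for 35 members in rows grouped by role and libraries in columns. N2 is mostly red and H2 mostly blue, while Xbp1 and Ern1 part the diets without overlap.

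Members with an ERSE in the promoter window were also set beside those without. The 8 tested genes with the element had a median difference of -0.36, from -0.47 (Pdia6) to 0.15 (Calr), and 7 lay below 0. The 21 without it had a median of -0.19, from -0.73 (Xbp1) to 0.38 (Eif2ak3), and 18 lay below 0. The ranges overlapped, and Xbp1, the member that was called, belonged to the second set. The difference between the sets was not tested.

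Other genes of the pathway were taken from lists made with earlier results of these data known. Of 110 tested, limma called 4 lower and none higher, against 1.88% and 0.975% of all tested genes. At an unadjusted p under 0.05, 25 were lower and 4 higher (11.0% and 7.18% of all), and voom called 14 lower (5.57% of all) and 1 higher. Their median difference was -0.15, and -0.05 without H2 and N2. The clearest was Spcs3, a subunit of the signal peptidase that trims proteins as they enter the ER. It was at 906, 1330, 959 and 982 FPKM in N1 to N4 and at 591, 600, 597 and 515 FPKM in H1 to H4. The high-fat libraries lay far below the lowest normal-diet library. Spcs3 fell by 0.84 on the log2 scale (standard error 0.15, limma adjusted p = 0.00937). It was called in all 17 other settings (adjusted p up to 0.0439), unlike Xbp1. It was the only limma call among 33 other genes of translocation, signal cleavage and glycan transfer (11 lower and 1 higher at an unadjusted p under 0.05, 8 lower and 0 higher with voom). Their median difference was -0.24, and -0.15 under quantile normalization or without H2 and N2.

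Of 24 other folding enzymes limma called 2, both lower (1.88% of all tested genes were). At an unadjusted p under 0.05, 5 were lower and 1 higher, against 11.0% and 7.18% of all tested genes. Voom called 3 lower (5.57% of all) and 1 higher. The median difference was -0.04 and turned to 0.03 under quantile normalization and to 0.06 without H2 and N2. Fkbp2, a prolyl isomerase, was at 94.7, 109, 103 and 101 FPKM in N1 to N4 and at 73.8, 59.0, 62.0 and 65.3 FPKM in H1 to H4, and fell by 0.64 (adjusted p = 0.0193). Man1b1, a mannosidase that trims glycans of misfolded proteins, was at 33.5, 32.4, 29.6 and 34.9 FPKM in N1 to N4 and at 19.8, 24.0, 20.7 and 21.9 FPKM in H1 to H4, and fell by 0.57 (adjusted p = 0.0356). Neither gene's libraries overlapped between the diets. Settings that ended the call of Fkbp2 include no filter (0.0867) and leaving out H3, H4 or N2 (up to 0.0825), and that of Man1b1 ended in 6 of the 8 sets of 7 libraries (up to 0.123), leaving H2 and N3 as the libraries whose removal kept it, and also under quantile normalization, with no filter and with plain variance options.

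A mixed list held 18 tested genes of ATF6 processing, of traffic out of the ER and of other ER membrane factors. Tmed2, a cargo receptor of the early secretory pathway, was its only limma call (1.88% of all tested genes were called lower). Unadjusted p under 0.05 was met by 4 lower and 1 higher, against 11.0% and 7.18% of all tested genes. With voom 2 other genes of this list were called lower (5.57% of all) and Tmed2 was not. The median difference of the list was -0.08, and -0.02 without H2 and N2. Tmed2 was at 162, 127, 131 and 80.4 FPKM in N1 to N4 and at 64.0, 74.1, 43.1 and 58.7 FPKM in H1 to H4. It fell by 1.03 (limma adjusted p = 0.0186). N4 lay nearest to the high-fat libraries. The call ended without H3, H4, N1, N2 or N3 (up to 0.0729), under quantile normalization, with voom and in 2 other settings (up to 0.0885).

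Limma called none of 25 other genes listed for ER-associated degradation. Man1b1, called above, was listed with the folding enzymes and not here. Of the 25, 0 were higher and 5 lower at an unadjusted p under 0.05, against 7.18% and 11.0% of all tested genes. Voom called 1 lower (5.57% of all). A difference below 0 was seen in 23 of them, against 52.1% of all tested genes, and their median was -0.21. Without H2 and N2, 18 of 25 were below 0 with a median of -0.08, against 5403 of 11483 tested genes. Under quantile normalization it was 21 of 25 and -0.14, against 5705 of 11483 tested genes below 0. The most abundant were Aup1, which ties ubiquitin enzymes to the ER membrane, at 263 ± 35.1 and 210 ± 13.9 FPKM (-0.31, adjusted p = 0.254), and Ube2j1, a ubiquitin-conjugating enzyme of the ER, at 273 ± 87.3 and 228 ± 18.3 FPKM (-0.21, adjusted p = 0.608). The PERK and ATF4 list differed in sign: 7 of 10 tested genes had a difference above 0, with a median of 0.10, and none was called by limma or voom. At an unadjusted p under 0.05 this list had 1 higher and 0 lower, against 7.18% and 11.0% of all tested genes. Its most abundant members were Atf3, a stress-induced transcription factor, at 234 ± 98.2 and 310 ± 37.8 FPKM (0.49, adjusted p = 0.327), and Atf4, the factor translated when PERK or its relatives are active, at 119 ± 35.1 and 129 ± 39.4 FPKM (0.11, adjusted p = 0.850). Whether this list differs from the others was not tested.

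**Figure D5:**
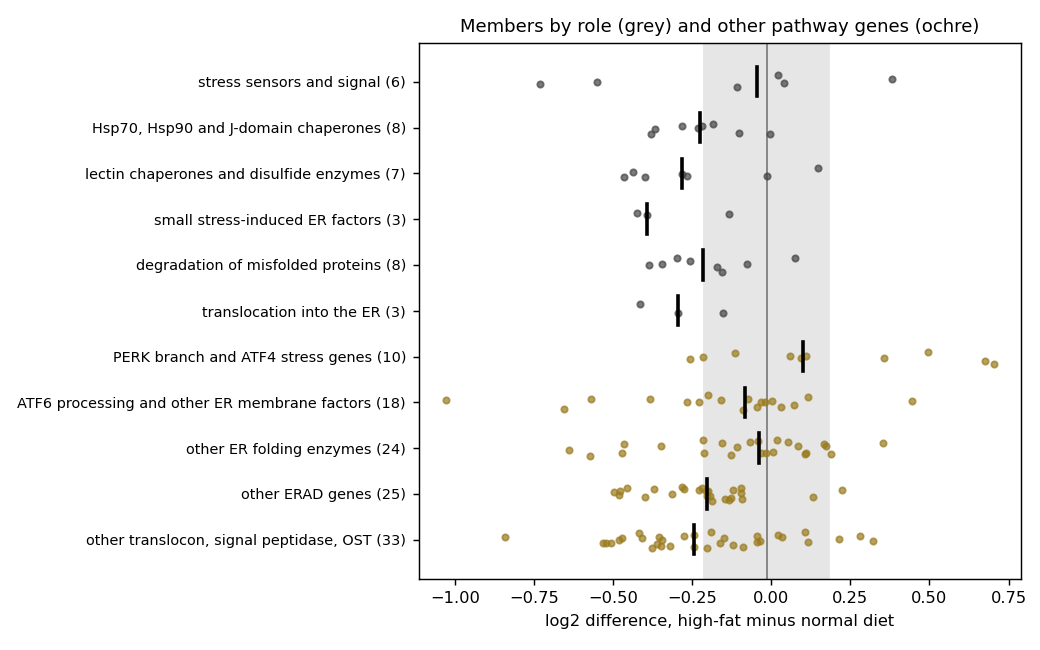
Log2 difference between the diets (x axis) for each tested gene, with members by role in grey and other pathway genes in ochre, and the number of genes in brackets. Black bars are medians, the vertical line is the median of all tested genes and the shaded band their interquartile range. The PERK and ATF4 list has a median of 0.10, and the other groups have medians below 0.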

How the data were processed

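Full-length cDNA (SMART-Seq HT) was sequenced, per the labels' protocols, from libraries that do not mark strand, and 11 members share exon bases with a gene on the opposite strand (not Xbp1 or Ern1). They are Ddit3, Derl2, Dnajb9, Eif2ak3, Hsp90b1, Manf, Pdia3, Pdia6, Ppp1r15a, Sec61a1 and Syvn1, with the longest overlap in Sec61a1 (388 bases). Per the submitters' processing notes, HISAT2, Cufflinks and mm10 were used. The sources used here name no version, annotation or filter. The unit of the deposited table is FPKM, per the file headers. In 14605 of 39527 genes a value lies below 0, and these genes were left out. Within a library, the authors' values also carry a factor of 0.863 to 1.18 that repeats every 10 genes in identifier order. It was kept, and divided out in an alternative (it moves Xbp1 by -0.08). From these steps whole reads were recovered for 100% of 24107 genes (relative tolerance 1e-07). The divisor is the smallest whole number that fits, so some reads may be too low.

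Genes with at least 1 FPKM in at least 4 libraries were tested with limma 3.58.1 in R 4.3.3 (trend and robust options, two-sided, Benjamini-Hochberg at 0.05) on log2(FPKM + 1), diet being the only term. Both scripts were tested on simulated data. Alternatives were quantile normalization, equal library medians, a pseudocount of 0.1, no filter, no trend or robust option, the factor divided out, limma voom with trimmed-mean scaling on recovered reads, a replicate block, each library left out, and H2 and N2 left out. All were planned. The members, lists and settings were chosen with earlier results of these data known. All members are named. Of each other list the called genes are named, up to 4, or the 2 most abundant where none was called. Same-diet libraries differed by more than sampling noise (chi-square per gene 9.61 to 24.7). Coordinates are from GENCODE M21 (mm10) and sequences from RefSeq GRCm38.p6. Of 31 member promoters, 27 matched a GENCODE transcript after the start. Protein features of the members were not used here.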

Additional observations from a re-analysis of the deposited data

Results flagged for a closer look

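In 3 of 70 sets of 4 libraries (each tested member in each diet), 1 library stood far from the other 3, where chance flags about 5% of such sets. Dnajb9 was at 76.0 FPKM in H1 against 61.3 to 61.9 FPKM in the other high-fat libraries. Dnajb11 was at 110 FPKM in N2 against 72.1 to 77.8 FPKM in the other normal-diet libraries, and Sel1l was at 36.04 FPKM in N2 against 24.2 to 26.0 FPKM. The last 2 both concern N2, which also held the highest value of 18 of the 35 tested members.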

How the results depend on the processing

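Diet changed 328 genes, and 191 with a replicate block, 130 with no filter, 571 with the repeating factor divided out, 1155 with voom on recovered reads and 129 (without H3) to 536 (without H2) with 1 library left out. No member was called higher in any of the 17 alternatives. Against 1 member called lower, 0 were with the replicate block, no filter, no trend or robust option, or without H2 and N2, 2 with equal medians or the factor divided out, 6 with voom, and 0 to 2 with 1 library left out. The cause of these shifts was not tested. Of 595 single-member differences under the alternatives, 38 changed sign, in 13 members. Each of the 13 had a difference of at most 0.17 in size and none was called. Quantile normalization gave Ddit3 0.014, Hyou1 0.0043, Pdia4 0.13, Manf 0.021 and Ssr1 0.00023. Equal medians gave Hyou1 0.0054. Dividing out the factor gave Ppp1r15a -0.049, Hyou1 0.050 and Pdia4 0.018. Voom gave Hyou1 0.11, Dnajc10 0.00024 and Pdia4 0.073. Without H2 and N2, Hyou1 was 0.029, Pdia4 0.16, Herpud1 0.019, Edem2 0.012, Edem3 0.16 and Ssr1 0.037. With 1 library left out, the ranges were -0.027 to 0.073 for Atf6, -0.21 to 0.033 for Ddit3, -0.11 to 0.23 for Ppp1r15a, -0.061 to 0.11 for Hyou1, -0.0063 to 0.25 for Calr, -0.13 to 0.086 for Pdia4, -0.18 to 0.13 for Edem3 and -0.048 to 0.24 for Derl2.

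Libraries with the same number correlated at -0.255 to 0.078 in their deviations and those with other numbers at -0.201 to 0.222. In these values, 0 libraries correlated best with their own number. Whether libraries with the same number were prepared together is not stated, and such correlations cannot decide it. With the block, the adjusted p of Xbp1 was 0.0590, and Fkbp2 and Man1b1 were no longer called. Depth limits Eif2ak3 and Derl3, with at most 96 reads per library. The planned description of protein features was not run.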
